A study of Mus musculus with 36 samples.

Results

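The genes described here are 10 members of the mouse Eph receptor and ephrin family: the A-type receptors Epha2, Epha3, Epha4, Epha5 and Epha7, the B-type receptors Ephb2 and Ephb3, the A-type ligand Efna5 and the B-type ligands Efnb1 and Efnb2. The family was chosen by the intensity of 1 of them, Epha5, which had differed between nicotine-exposed and Control embryos in earlier results of the same data. The array carried 22 probes annotated to 9 of the 10 genes, among 45281 probes in all. Ephb2 had no probe under its symbol and is not analysed here. An intensity minimum of 32 on at least 12 of the 36 arrays kept 16927 probes of the array, among them 11 probes of 7 of these genes. Epha4 and Ephb3 were on the array but did not reach the minimum.

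The study measured 3 groups of 12 whole male embryos of the inbred strain C57BL/6J, taken at 9.5 days post coitum (dpc), on an Illumina bead array with 1 array per embryo. The mothers of the Nicotine group drank 100 µg/ml freebase nicotine of their own accord, and the mothers of the Ethanol group drank 10% (v/v) ethanol in the same way, both from 0.5 to 8.5 dpc. The remaining group is labelled Control, and what its mothers drank is not given in the sources used here. The labels number the embryos 1 to 12 in each group but name no mother, day or slide for them, so p-values measure only the spread between these embryos, which are not known to be independent.

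Eph receptors form the largest family of receptor tyrosine kinases, and their ligands, the ephrins, sit on the membrane of the neighbouring cell. A-type ephrins are tied to the membrane by a lipid anchor and B-type ephrins cross it, so that contact between cells can send a signal into both of them. In the embryo at this stage the family is known for setting the borders between hindbrain segments and between somites, for guiding neural crest cells and axons, and, through Efnb2 and its receptor Ephb4, for separating arteries from veins.

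Promoter sequences were found in the RefSeq table (build GRCm38.p6) for all 10 genes, Epha7 with a pair of start sites. The 250 bases before the start are printed for Epha5, the gene that led to this choice, and for Efnb2, whose level divided the embryos most sharply. Both strands were searched for TTTAT, the core that caudal (Cdx) homeodomain proteins bind, for TAATTA, a core shared by many homeodomain proteins, for ATTGG (the CCAAT box) and for GGGCGG (the GC box). Capitals mark TTTAT and TAATTA. Epha5 lies at chr5:84417383-84417632 on the minus strand and Efnb2 at chr8:8661243-8661492 on the minus strand.
Epha5: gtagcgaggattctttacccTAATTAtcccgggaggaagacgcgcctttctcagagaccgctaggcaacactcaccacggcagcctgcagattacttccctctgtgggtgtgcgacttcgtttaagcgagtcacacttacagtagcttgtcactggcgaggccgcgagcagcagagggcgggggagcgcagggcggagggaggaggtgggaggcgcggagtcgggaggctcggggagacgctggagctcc
Efnb2: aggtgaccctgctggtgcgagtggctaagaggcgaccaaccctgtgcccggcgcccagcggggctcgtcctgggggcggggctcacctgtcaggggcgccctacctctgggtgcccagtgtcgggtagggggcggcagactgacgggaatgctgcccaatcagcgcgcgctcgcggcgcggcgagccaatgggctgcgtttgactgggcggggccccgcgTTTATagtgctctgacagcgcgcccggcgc

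Epha5 held 1 TAATTA, 230 bases before the start, and no TTTAT. Efnb2 held 1 TTTAT, 30 bases before the start, and no TAATTA. Among 32851 promoter windows of this length, 37.26% held TTTAT and 4.84% held TAATTA. Epha5 was the only one of the 10 genes with TAATTA in its window and Efnb2 the only one with TTTAT. Both windows were richer in GC than the median window (52.4% GC, 6 CpG dinucleotides), at 62.4% GC with 20 CpG for Epha5 and 72% GC with 27 CpG for Efnb2. GGGCGG, found in 32.74% of all windows, occurred in Epha2, Epha4, Epha5, Epha7, Ephb3, Efna5 and Efnb2, with 4 copies in Efna5. ATTGG, found in 33.85% of all windows, occurred in Epha4, Epha7, Ephb2, Efnb1 and Efnb2. Motif matches describe letters and do not show binding.

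Each deposited value is a linear intensity, given below without a unit. Differences are differences of group means on the scale log2(intensity + 16), with standard errors (SE) over 12 embryos per group, and they understate the change of dim probes. Probes differ in how brightly they report, so the level of one gene is not set against that of another, and each gene is represented by whichever of its kept probes had the highest mean. In earlier results of these data, replicates 7 to 12 lay apart from replicates 1 to 6 in all 3 groups, and the labels do not say why. These are called the 2 sets here, and values within each set stand beside those results they touch. In RNA from whole embryos, fewer cells of a type and less RNA per cell cannot be told apart.

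Epha5, a receptor that binds A-type ephrins and is known for guiding axons, was the member with the largest difference between Nicotine and Control embryos. Its probe read 8.76 at the lowest, 55.0 at the median and 103 at the highest in Nicotine embryos, 7.32, 13.1 and 43.1 in Ethanol embryos, and 9.31, 20.8 and 32.5 in Control embryos. The groups overlapped, but 9 of 12 Nicotine embryos lay above the highest Control embryo and 9 of 12 above the highest Ethanol embryo. The Nicotine mean was 0.82 (SE 0.206) above Control on the log2 scale, and in 11 of 12 pairs of equal replicate number the Nicotine embryo was the higher. Because these values led to the choice of the family, they are a description and carry no test.

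The pattern was not uniform among Nicotine embryos. Replicate 5 read 8.76 in Nicotine, 10.1 in Ethanol and 10.4 in Control, and replicate 12 read 10.8 in Nicotine, 8.53 in Ethanol and 9.31 in Control. These were the lowest embryos of the Nicotine group and of the Control group, and all 3 groups read under 11 there. The other 10 Nicotine embryos read 30.8 or more. In Ethanol embryos the values fell into a wide range, with replicates 3 and 7 at 43.1 and 40.4 and replicates 2, 6 and 8 at 8.34, 7.32 and 9.61. The difference of Nicotine from Control was 0.92 within replicates 7 to 12 and 0.73 within replicates 1 to 6.

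**Figure D1:**
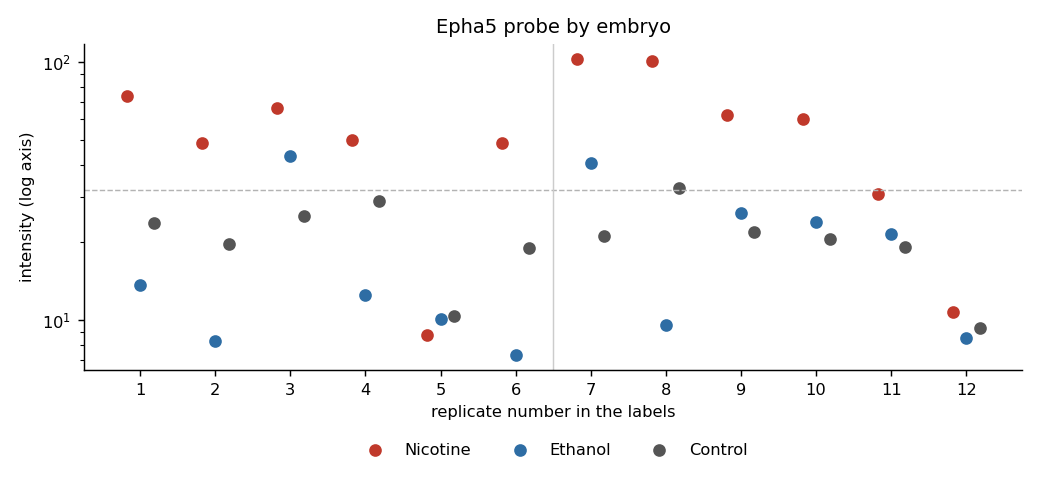
Intensity of the Epha5 probe (log axis) in each of 36 embryos, by replicate number in the labels, with Nicotine in red, Ethanol in blue and Control in grey. The dashed line is the minimum of 32, and the vertical line parts replicates 1 to 6 from 7 to 12. At replicates 5 and 12 all 3 groups read under 11, and at the other numbers the Nicotine embryo is the highest of its number.

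The probe was near the limit of what could be measured. It reached 32 in 9 Nicotine, 2 Ethanol and 1 Control embryos, 12 in all, which is the least the minimum allows, so it was kept because of its values in the Nicotine group. The size of the difference depended on the constant added before the logarithm, at 1.14 with 1 and 0.45 with 64 in place of 16. The array held 5 other probes annotated to Epha5, and none of them exceeded 13.8 on any array. For 4 of these 5 the difference of Nicotine from Control lay between -0.03 and 0.02. The last of them read 3.10 to 10.9 in Nicotine embryos and 2.48 to 5.24 in Control embryos, with 6 Nicotine embryos above the highest Control embryo and a difference of 0.15 (SE 0.041). The probe that was kept has the symbol Epha5 in the array annotation but no transcript accession, and which part of the gene each probe reads is not given in the sources used here.

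For the remaining receptors the groups overlapped more. Epha2, a receptor of epithelia and, in the early mouse embryo, of the node, read 22.3, 40.9 and 79.1 (lowest, median and highest) in Nicotine embryos, 27.9, 35.3 and 55.1 in Ethanol embryos and 18.2, 36.6 and 53.6 in Control embryos. The groups overlapped, with 4 Nicotine embryos (replicates 1, 3, 4 and 10, at 65.0 to 79.1) above every Control embryo. The Nicotine mean stood 0.21 (SE 0.131) above Control.

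Epha3, a receptor expressed in mesoderm and in developing motor neurons, read 32.5, 77.2 and 176 in Nicotine embryos, 45.6, 143 and 241 in Ethanol embryos and 38.8, 116 and 234 in Control embryos. The groups overlapped, and 3 Nicotine embryos lay below the lowest Control embryo. The Nicotine mean was -0.45 (SE 0.280) from Control, with 10 of 12 Nicotine embryos below the Control embryo of the same number. The SE was 0.173 with the replicate number as a block. A second kept probe of Epha3 ran the same way, at -0.26 (SE 0.228), and the deviations of these 2 probes from their group and set means correlated at r = 0.66 over 36 arrays.

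Epha7, a receptor of the hindbrain segments and the neural tube, differed least of the kept receptors. The probe with its highest mean read 76.5, 205 and 370 in Nicotine embryos, 119, 220 and 539 in Ethanol embryos and 71.8, 196 and 396 in Control embryos. The groups covered each other, and the Nicotine mean was 0.03 (SE 0.262, or 0.144 with the replicate number as a block) above Control. Its other kept probes gave -0.12 (SE 0.207) and 0.11 (SE 0.190).

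Epha4 and Ephb3 stayed below the minimum and were left out of the counts of calls. Epha4, a receptor that binds both ephrin types and marks hindbrain segments, read 23.0, 32.7 and 44.2 in Nicotine embryos, 20.4, 29.4 and 38.1 in Ethanol embryos and 16.3, 26.8 and 32.2 in Control embryos. In 6 Nicotine and 3 Ethanol embryos it was above the highest Control embryo, and the difference of Nicotine from Control was 0.22 (SE 0.078). Ephb3, a receptor for B-type ephrins, read 5.46, 15.8 and 40.6 in Nicotine embryos, 10.7, 20.2 and 52.5 in Ethanol embryos and 8.65, 21.3 and 24.7 in Control embryos. The highest Ethanol embryos, replicates 3, 4 and 5 at 44.4 to 52.5, were those that reached the minimum in that group.

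The means of the 3 ligands in Nicotine embryos lay between -0.13 and 0.12 from Control. Efna5, the A-type ephrin that can bind most of the A-type receptors, read 2472, 3304 and 4019 in Nicotine embryos, 3095, 3467 and 5263 in Ethanol embryos and 2770, 3295 and 4583 in Control embryos. The groups overlapped, with 4 Nicotine embryos (replicates 1, 2, 4 and 5) below the lowest Control embryo. The Nicotine mean was -0.12 (SE 0.0998) from Control, and the other kept probe of the gene gave -0.09 (SE 0.114). The deviations of these 2 Efna5 probes from group and set means did not run together (r = -0.02, 36 arrays).

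Efnb1, the X-linked B-type ligand known for its part in the neural crest and skeleton, read 628, 869 and 1009 in Nicotine embryos, 748, 904 and 1068 in Ethanol embryos and 848, 937 and 1081 in Control embryos. It was the steadiest member, with an SD after group and set means of 0.14 on the log2 scale, at the 14.5th percentile of all kept probes. The Nicotine mean was -0.13 (SE 0.068) from Control, with 4 Nicotine embryos below the lowest Control embryo.

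Efnb2, the B-type ligand of arteries, somites and hindbrain segments, read 30.6, 96.0 and 175 in Nicotine embryos, 22.3, 93.2 and 210 in Ethanol embryos and 22.9, 83.7 and 196 in Control embryos. The 3 ranges nearly coincide, and the Nicotine mean was 0.12 (SE 0.390) above Control. That SE includes the spread between the sets. It was 0.0884 with the replicate number as a block, and the Nicotine embryo was the higher in 10 of 12 pairs of equal number. Within every group the values fell into 2 clusters by replicate number.

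**Figure D2:**
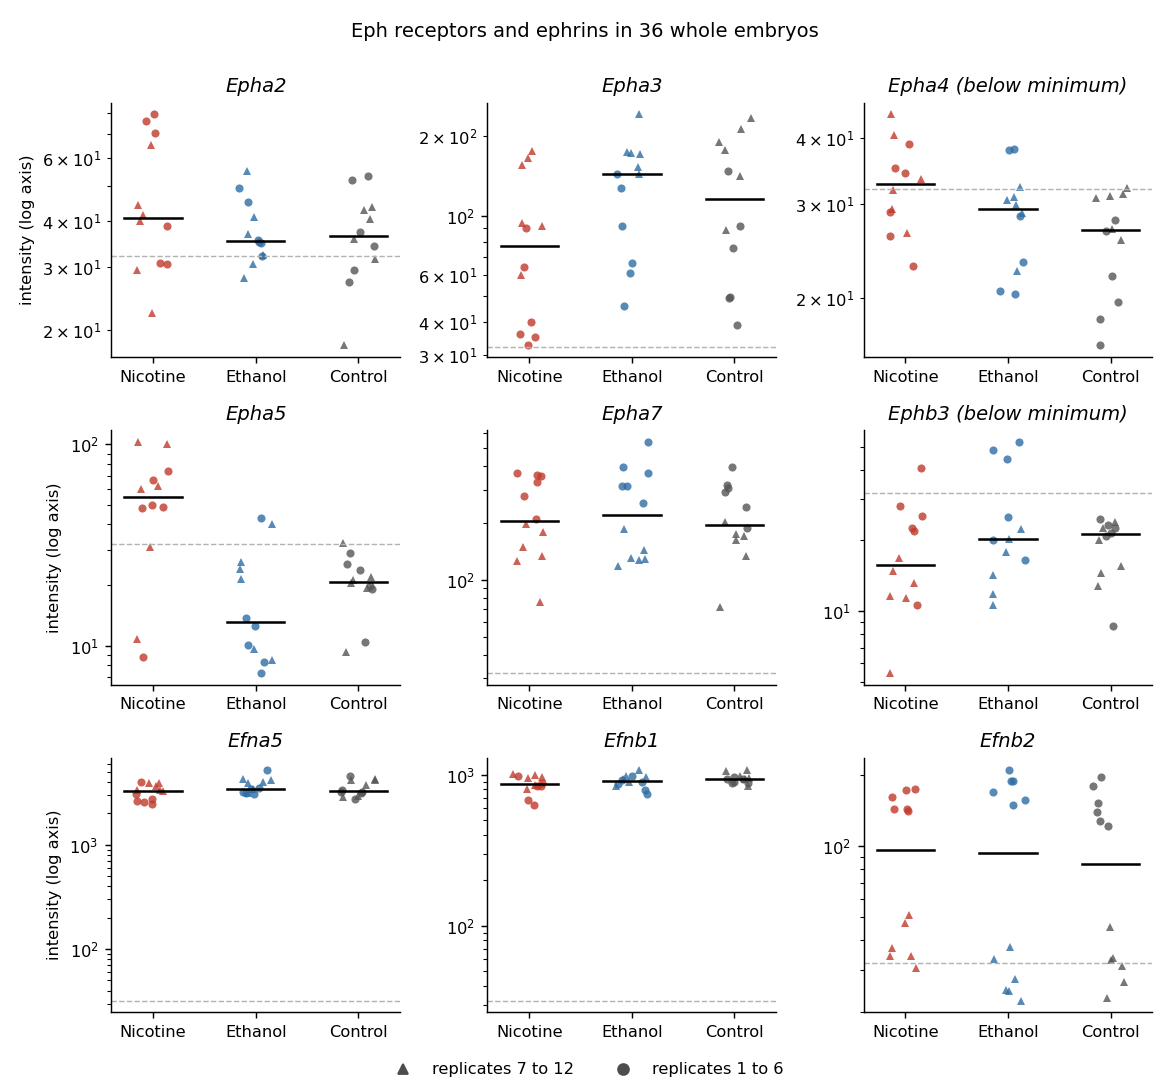
Intensity (log axes) of the 9 genes with a probe in 36 embryos, with Nicotine left, then Ethanol, then Control, triangles for replicates 7 to 12, circles for replicates 1 to 6 and a bar at each group median. The dashed line is the minimum of 32. Epha5 is the panel in which the Nicotine points stand highest against the others, and in Efnb2 the triangles and circles separate within each group.

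In the test of Nicotine against Control across the array, 1 of 16927 kept probes (0.00591%) had an adjusted p under 0.05 (limma, Benjamini-Hochberg), and it was none of the 11 probes of this family. With the replicate number as a block, 194 probes (1.15%) passed, among them 1 of the 11, the Epha5 probe. With 1 replicate number left out of all groups, the count over the array ran from 0 (without replicate 6 or 7; 1 without replicate 2) to 256. With a block for the set of replicate numbers none of the 11 passed while 3 of all probes (0.0177%) did, 2 of them higher (0.0118%). Between Nicotine and Ethanol, where 0 of the kept probes (0%) passed without the block and 834 had an unadjusted p under 0.05, the Epha5 difference was 0.97 (SE 0.206) and Epha3 stood at -0.59 (SE 0.280). With the block 69 probes (0.408%) passed there, Epha5 again being the only member, and 0 (without replicate 2, 6 or 8) to 178 passed when 1 replicate number was left out. Both counts describe the contrasts that share the Nicotine embryos with the choice of the family, so nothing is read from them.

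Ethanol against Control is the comparison that did not enter the choice, although it shares the Control embryos with it. None of the 11 member probes passed the test, against 0 of 16927 kept probes in all (0%), of which 177 had an unadjusted p under 0.05 and none of these was a member. With the replicate number as a block again 0 of all kept probes passed, and 784 had an unadjusted p under 0.05. Among the 7 kept genes 5 means lay above Control and 2 below, with a median difference of 0.04, beside 50.9% above and a median of 0.00 over all kept probes.

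For Epha5 the Ethanol mean was -0.14 (SE 0.206) from Control, with a 95% interval of -0.56 to 0.28. The Ethanol embryos spread more widely than the Control embryos for this probe, at an SD of 0.47 on the log2 scale against 0.27, and lay on both sides of them, with 2 above the highest and 3 below the lowest Control embryo. The widest intervals were those of Efnb2, with a difference of 0.04 and bounds of -0.75 and 0.83, and of Epha3, with 0.14 and bounds of -0.43 and 0.71. The narrowest was that of Efnb1, with -0.06 and bounds of -0.20 and 0.08. Epha2 differed by 0.03 (-0.24 to 0.30), Epha7 by 0.11 (-0.42 to 0.64) and Efna5 by 0.07 (-0.13 to 0.28), each with an adjusted p of 1 (limma). For the unkept genes the differences were 0.10 (SE 0.078) for Epha4 and 0.17 (SE 0.149) for Ephb3. These bounds come from the fit without a block. With the replicate number as a block the SE fell to 0.0884 for Efnb2, 0.173 for Epha3 and 0.144 for Epha7, and no member passed (lowest adjusted p 0.990, limma).

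**Figure D3:**
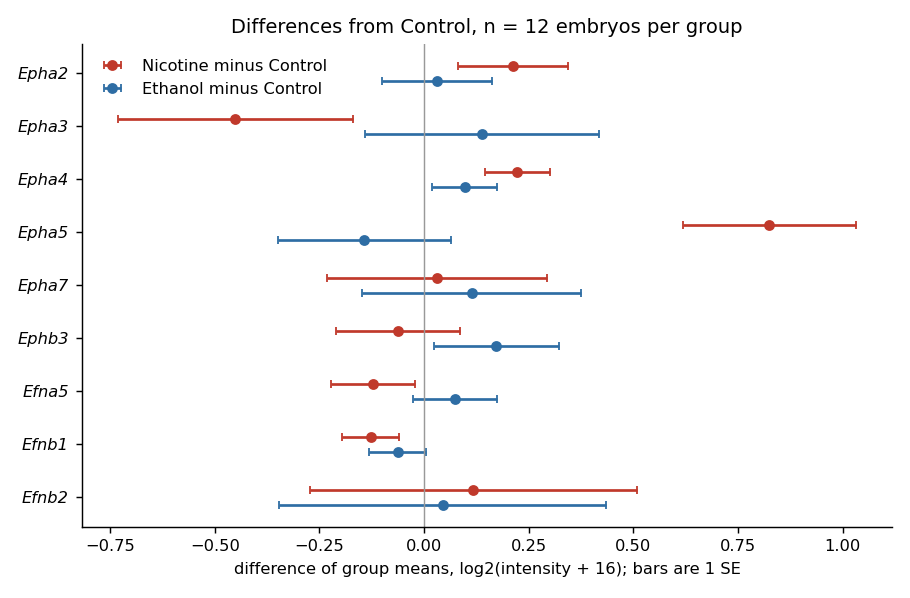
Differences of the Nicotine mean (red, upper mark of each pair) and of the Ethanol mean (blue, lower mark) from the Control mean for 9 genes, on the log2(intensity + 16) scale, with bars of 1 SE and n = 12 embryos per group. Epha5 in Nicotine, at 0.82, lies farthest from 0, and the Ethanol marks lie between -0.14 and 0.17.

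Several members differed more between the 2 sets of replicate numbers than between the groups. What the sets stand for is not in the labels, so these values are a description. Efnb2 showed the split most plainly. In Nicotine embryos it read 30.6 to 51.1 in replicates 7 to 12 and 141 to 175 in replicates 1 to 6. In Ethanol embryos the ranges were 22.3 to 37.6 for numbers 7 to 12 and 149 to 210 for numbers 1 to 6, and in Control embryos 22.9 to 45.6 and 122 to 196. No embryo of one set reached the range of the other. The difference of the sets was -1.86 on the log2 scale, and 0.36% of all kept probes differed by as much or more. Non-overlap of the sets was seen in 1638 of 16927 kept probes (9.68%), with replicates 7 to 12 lower in 1274 of them (7.53%) and higher in 364 (2.15%). Among the 11 member probes Efnb2 was the only one.

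The probes of Epha7 disagreed between the sets. Probe 1, which stands for the gene, had a median of 139 in replicates 7 to 12 against 317 in replicates 1 to 6 (difference -1.08), and probe 2 a median of 40.7 against 88.6 (-0.83). Probe 3 went the other way, at 33.3 in replicates 7 to 12 and 19.95 in replicates 1 to 6 (0.51), as did probe 4, which lay below the minimum, at 28.8 and 15.1 (0.37). Probes 1, 3 and 4 are annotated to the same RefSeq transcript, and of these only probe 1 was lower in replicates 7 to 12. Over all 36 arrays probes 1 and 3 correlated at r = -0.24, and after group and set means were removed at r = 0.47. Probes 1 and 3 ran together within the sets and apart between them. After group and set means were removed probe 2 correlated at r = 0.31 with probe 1 and at r = -0.06 with probe 3. The likeness values given for Epha7 below are those of probe 1.

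Epha3 was higher in replicates 7 to 12, at a median of 168 against 62.4 in replicates 1 to 6 (difference 1.04), and its second kept probe differed by 0.70 in the same direction. Ephb3 was lower, at a median of 14.6 against 23.0 (-0.39). Epha5, at 22.9 in replicates 7 to 12 and 21.7 in replicates 1 to 6, differed by 0.14, as did Efnb1 and Epha4, and Efna5 differed by 0.18 and Epha2 by -0.14. The median difference over all kept probes was 0.08. A test of whether the Ethanol difference from Control itself depended on the set called 0 of 16927 probes (limma interaction term, 389 at an unadjusted p under 0.05). Of the members Efnb2 came nearest, with an Ethanol difference of -0.12 in replicates 7 to 12 and 0.20 in replicates 1 to 6, a difference of -0.32 (SE 0.162) between them with an adjusted p of 1 (limma).

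**Figure D4:**
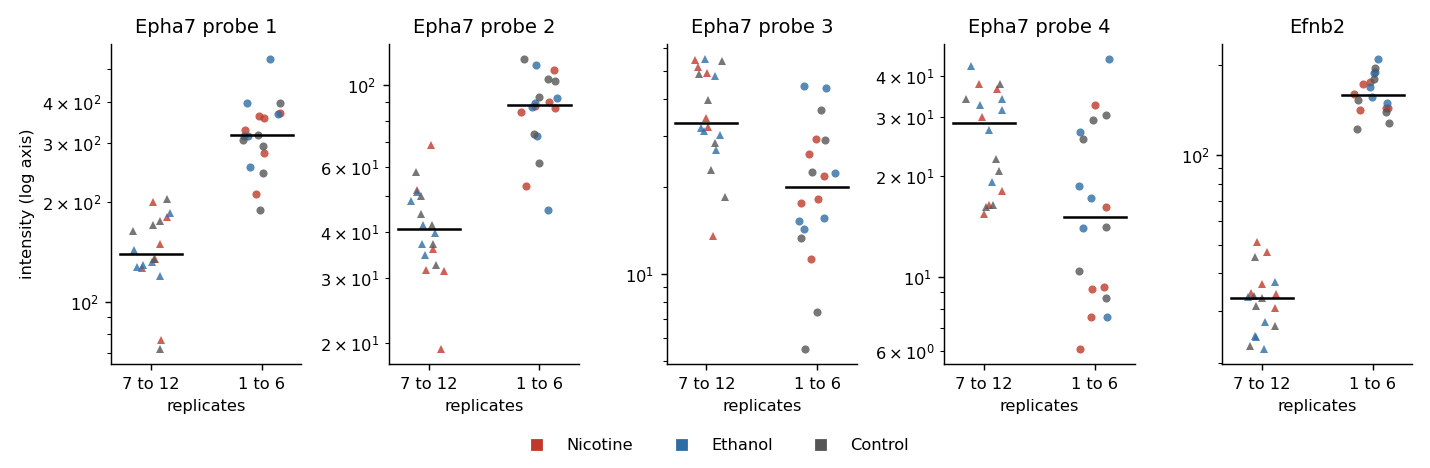
Intensity (log axes) of the 4 Epha7 probes and of Efnb2 in replicates 7 to 12 (left) and 1 to 6 (right), 18 embryos each, coloured by group, with bars at the medians. Epha7 probes 1 and 2 are lower and probes 3 and 4 higher in replicates 7 to 12, and in Efnb2 the ranges of 22.3 to 51.1 and 122 to 210 do not meet.

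The 12 other Eph and ephrin genes on the array gave 6 kept genes: the receptors Epha1, Ephb1 and Ephb4 and the ligands Efna1, Efna4 and Efnb3. None passed the test in either direction in any of the 3 comparisons. Ephb1 stood at 0.20 from Control in Nicotine and 0.17 in Ethanol. Efna4 stood at -0.20 in Nicotine and -0.13 in Ethanol, and Ephb4, the receptor of Efnb2 in veins, at -0.11 in Nicotine. The median over the 6 genes was -0.09 in Nicotine and -0.02 in Ethanol.

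Of 40 genes that act with Eph receptors and ephrins inside the cell, 37 had a probe and 27 were kept. They include adaptors (Nck1, Crk), exchange factors for small GTPases (Vav2, Vav3, Ngef, Tiam1), kinases (Src, Abl1), PDZ proteins that bind B-type ephrins (Grip1, Pick1, Sdcbp) and regulators of the cytoskeleton (Rock1, Limk1, Cfl1). None passed in any comparison without the block, and the median difference from Control was 0.00 in Nicotine and 0.02 in Ethanol. With the replicate number as a block 1 of the 27, Rgs3, passed between Nicotine and Control, at -0.24, where 1.15% of all kept probes passed and 0.479% passed lower. With the set block Rgs3 did not pass (adjusted p 0.136, limma). Rgs3 encodes a G protein regulator, a form of which binds the tail of B-type ephrins. Ngef, also called ephexin, which links A-type receptors to RhoA, stood at 0.31 in Nicotine and 0.01 in Ethanol and did not pass.

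How the members varied together was described with deviations from the mean of each group within each set, over 36 arrays that share these groups and sets. The closest pair was Epha2 and Epha5 (r = 0.53, rho = 0.49), followed by Epha3 and Epha7 (r = 0.48, rho = 0.48) and by Epha2 and Efnb2 (r = 0.47, rho = 0.49). Epha2 and Epha7 ran against each other (r = -0.35, rho = -0.44). Within replicates 7 to 12 and within replicates 1 to 6, r was 0.73 and 0.35 for Epha2 and Epha5. It was 0.56 and 0.43 for Epha3 and Epha7, and 0.68 and 0.26 for Epha2 and Efnb2. For Epha2 and Epha7 it was -0.10 and -0.62. Of these pairs only Epha3 and Epha7 stood alike in both sets. The remaining pairs lay between -0.27 and 0.42 over all arrays.

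Among 9682 other genes, those most like Epha5 by this measure were Greb1 (r = 0.86), Fgf17 (r = 0.81), Nkx1-2 (r = 0.80), Cdx4 (r = 0.80) and Cdx2 (r = 0.78). Fgf17 encodes a fibroblast growth factor, Nkx1-2 a homeodomain protein of the posterior growth zone, and Cdx4 and Cdx2 the caudal homeodomain proteins that pattern the posterior body. Those that ran most against it were Jun (r = -0.70), a subunit of the AP-1 factor, Hspa12b (r = -0.67) and the endothelin receptor Ednrb (r = -0.65). The nearest genes of the other members were not among these. Epha3 was closest to Megf10 (r = 0.83) and to Dcx (r = 0.81), which encodes a microtubule protein of young neurons. Epha7 was closest to Zfp579 (r = 0.76) and the homeobox gene Mkx (r = 0.73), and Efna5 to Alg2 (r = 0.85) and Dnmbp (r = 0.84). The Efna5 values are those of the probe that stands for it, with which its other kept probe did not run (r = -0.02). Nearest to Efnb1 were Ext2 (r = 0.68), an enzyme of heparan sulfate synthesis, and Crispld2 (r = 0.67), and nearest to Efnb2 Kdm1a (r = 0.64) and Zfp866 (r = 0.59). Epha2 had the weakest best match of the 7, 2510039O18Rik (r = 0.62), followed by Aldh4a1 (r = 0.61).

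A list of 13 genes that mark the tail bud and the presomitic mesoderm had 9 kept genes (Tbx6, Cdx2, Cdx4, Wnt3a, Nkx1-2, Evx1, Fgf8, Dll1 and Sp5). Hes7 and Lfng did not reach the minimum, and T and Msgn1 had no probe. Nkx1-2, Cdx4 and Cdx2, among the genes most like Epha5, are on this list. The mean of the 9 genes and Epha5 deviated together at r = 0.85 (rho = 0.82, 36 arrays), and at r = 0.78 without the 2 arrays farthest from the median. Within the groups r was 0.87 in Nicotine, 0.91 in Ethanol and 0.76 in Control, and within the sets 0.78 in replicates 7 to 12 and 0.93 in replicates 1 to 6. For the other members r with this list lay between -0.43 (Epha3) and 0.42 (Epha2).

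The same list stood higher in Nicotine embryos. All 9 kept genes had a higher mean than Control, with a median difference of 0.84, 0 past the threshold without the block and 6 with the replicate block (Tbx6, Cdx2, Cdx4, Wnt3a, Nkx1-2 and Evx1), where 0.668% of all kept probes passed higher. With the set block none of these 6 passed (adjusted p from 0.0624 to 0.112, limma). The list was chosen with earlier results of these data known, and the contrast shares the Nicotine embryos with the choice of the family. The count is therefore a description, and nothing is read from it against the share of all probes. Over the array the count with the replicate block ran from 0 to 256 when a replicate number was left out. The summed intensity of the 9 genes ran from 1899 to 7033 in Nicotine embryos, from 1450 to 4776 in Ethanol embryos and from 1301 to 4176 in Control embryos. In Ethanol 3 of the 9 lay above Control and 6 below, with a median of -0.03. The part of the tail bud genes in the Epha5 difference was not tested.

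**Figure D5:**
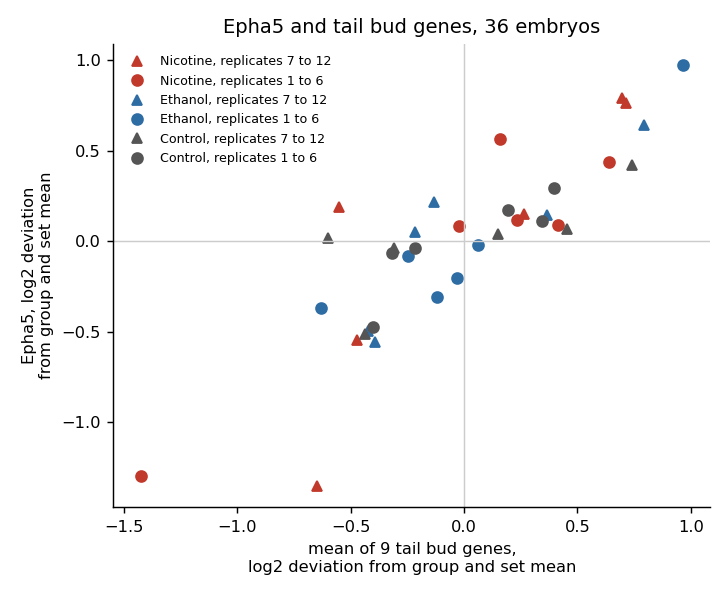
Deviation of Epha5 from its group and set mean (vertical axis, log2) against that of the mean of 9 tail bud genes (horizontal axis, log2) in 36 embryos, coloured by group and shaped by set. The deviations rise together (r = 0.85 over all), with 2 Nicotine embryos (replicates 5 and 12) at the lower left.

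Markers of other parts of the embryo moved with some members too. Over all kept probes 51.4% of means lay above Control in Nicotine and 50.9% in Ethanol. Of 12 endothelial genes 10 were kept. All 10 had a mean below Control in Nicotine (median -0.33, 0 past the threshold) and 9 of 10 one above it in Ethanol (median 0.06, 0 past the threshold). Their summed intensity ran from 1743 to 6780 in Nicotine embryos, from 2722 to 6972 in Ethanol embryos and from 2969 to 6752 in Control embryos, with Kdr and Dll4 below the minimum. They ran against Epha5 (r = -0.46) and with Epha3 (r = 0.44), and hardly with Efnb2 (r = 0.11). Of 7 neural crest genes 4 were kept (Sox10, Tfap2a, Tfap2b and Ets1), and their mean ran with Efna5 (r = 0.62), Epha3 (r = 0.56) and Epha7 (r = 0.43). Their summed intensity ran from 1902 to 3222 in Nicotine embryos, from 2510 to 3530 in Ethanol embryos and from 2140 to 3782 in Control embryos, and the median difference from Control was -0.24 in Nicotine and 0.02 in Ethanol. The 4 kept genes of 9 for the forebrain and midbrain ran with Efna5 (r = 0.55), at 0.88 in replicates 7 to 12 and 0.31 in replicates 1 to 6. For the neural crest genes and Efna5 these values were 0.71 and 0.60. Both links are those of the probe that stands for Efna5, with which its other kept probe did not run (r = -0.02). For the 4 kept genes of 9 for the hindbrain segments, r with the 7 kept members lay between -0.40 and 0.19. Their median difference from Control was 0.05 in Nicotine and 0.09 in Ethanol. With the replicate block 1 of these 4 passed higher in Nicotine against Control, where 0.668% of all kept probes did. In the same fit 1 of the 4 neural crest genes passed lower, where 0.479% of all kept probes did. Both counts are a description. Yolk sac and placenta genes, which mark tissue outside the embryo proper, varied widely from embryo to embryo. The 6 kept yolk sac genes of 8 summed to 156 to 24978 in Nicotine embryos, 174 to 14411 in Ethanol embryos and 192 to 16114 in Control embryos, and their r with the members lay between -0.42 (Epha7) and 0.27 (Efnb1). In Nicotine 3 of these 6 lay above Control, and in Ethanol all 6 did (median 0.46, 0 past the threshold). The 2 kept placenta genes of 7 summed to 22.2 to 2298 in Nicotine embryos, 11.03 to 384 in Ethanol embryos and 9.11 to 30006 in Control embryos, with r between -0.37 (Epha3) and 0.14 (Epha5). Both placenta genes lay below Control in Nicotine (median -0.99) and in Ethanol (median -1.94), with 0 past the threshold. The part of these markers in the members' values was not tested.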

How the data were processed

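RNA of 36 embryos was read on an Illumina bead array. The authors deposited a linear intensity for each probe and embryo, and the submitters' processing notes name GenomeStudio 1.9.0. How background and normalization were handled is not given in the sources used here. The arrays have nearly equal medians, at 10.7 to 10.8, and their other quantiles were not compared. Precision is limited by the number of arrays. A deposited file of signals before normalization has 72 columns whose names match no sample label, and these were not used.

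The deposited intensity was turned into log2(intensity + 16). Probes that reached 32 on at least 12 of 36 arrays were kept. Symbols came from the platform annotation (34885 probes with 1 symbol, 18 with several, 10378 unnamed). Groups and replicate numbers came from the sample titles. All 36 arrays entered 1 limma fit (limma 3.58.1 in R 4.3.3, lmFit and eBayes, 33 residual degrees of freedom), two-sided, with Benjamini-Hochberg adjustment over 16927 kept probes and a threshold of 0.05. For unkept probes differences and SE come from the same fit on all probes. The steps were tested on simulated data with independent noise around set means. These held no effect of replicate number, so they do not check the pairing of embryos by number.

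Replicate numbers 1 to 12 recur in each group. Deviations from group means correlated above 0.1 in 36 of 36 same-number pairs (mean 0.589, lowest 0.243, against -0.0513 for other numbers). Same-number arrays always share a set and the other numbers mix both sets, so this contrast cannot separate pairing from the sets. After set means were removed 22 of 36 pairs exceeded 0.1 (mean 0.174), and no value for other numbers was computed. The pairing is therefore assumed and is not in the labels. A fit with the number as a block (22 residual degrees of freedom) was run as an alternative.

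The members, the gene lists and the marker lists were chosen with earlier results of these data known. Every member is named. For likeness the 5 genes most like Epha5 and the 3 most unlike it, and the 2 most like each other member, are named. Promoter windows come from RefSeq (GRCm38.p6). Alternatives were other pseudocounts, filters, blocks, a variance trend, quantile normalization of the deposited values, other probes, each set alone and each replicate number left out.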

Additional observations from a re-analysis of the deposited data

How the results depend on the processing

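Without the replicate block 0 of 11 member probes and 0 of 33 other family and partner genes passed in each comparison. With the replicate block 1 member probe, Epha5, passed in Nicotine against Control (adjusted p 0.0158, limma, the contrast that chose it) and in Nicotine against Ethanol, and 1 partner gene, Rgs3, passed in Nicotine against Control. Because Epha5 led to the choice, its p is no evidence. With the block and each replicate number left out in turn these counts ran from 0 to 1, the Epha5 call in Nicotine against Control being lost without replicate 2, 6 or 7, and the partner count in Nicotine against Ethanol being 1 without replicate 11. Without the block, leaving out replicate 5 gave 1 member probe in Nicotine against Ethanol, and 0 to 1 is the range there. The block changed no other call of a member or partner gene. At an intensity minimum of 64 Epha5 was not measured.

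The members' differences had 75 alternative values in each comparison, beside those with a replicate number left out. In both Nicotine comparisons all 75 values moved by less than the SD between embryos around their group means. This SD includes the difference between the sets, and for every kept member but Epha5 it was larger than the difference itself. A change of sign was not counted as a move there. Few values could have counted as moved, so little can be read from this. For Ethanol against Control 70 of 75 kept their direction and no alternative passed the threshold. Small differences changed sign, and the cause was not tested. In Ethanol against Control the changes were Epha2 to -0.0137 without replicate 5 and -0.0192 without replicate 7 (range -0.0192 to 0.0800), Epha5 to 0.000346, Epha7 to -0.0797 and Efnb2 to -0.116 within replicates 7 to 12. With another kept probe Epha3 became -0.0455 and Epha7 became -0.0850. In Nicotine against Control Epha7, at 0.03, ran from -0.08 to 0.15 with a replicate number left out and was -0.07 within replicates 7 to 12 and -0.12 with another kept probe. In Nicotine against Ethanol Efnb2, at 0.07, was -0.16 within replicates 1 to 6, and Epha7, at -0.08, was 0.0094 within replicates 7 to 12. Background correction of the signals before normalization (neqc) was not run, since their columns match no sample by name. Probes near the minimum, Epha5 among them, limit what the array can show.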
